A study of Mus musculus with 2 samples.

Results

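The genes described here encode DNA repair and checkpoint proteins, in mouse NIH 3T3 fibroblasts made to express a truncated form of the transcription factor ATCE1. They were chosen by name, as a list of 44 genes of homologous recombination, Fanconi, mismatch, excision and end joining repair and of the damage checkpoint. A gene counted as present when the platform annotation gave its symbol, and no other, to at least 1 probe set. This held for 42 of the 44, read by 77 probe sets, out of 12393 genes named in this way on the arrays. Fancd2 and Mdc1 had no such probe set in the annotation used and were not analysed here.

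The series holds 1 array for each of 2 cultures. The ATCE1-C-del culture received pHA-CMV-ATCE1-C-del, which drives a C-terminally deleted, nuclear ATCE1 from the CMV promoter of the vector, and the empty vector culture received pHA-CMV alone. Both were NIH 3T3 cells grown in DMEM and transfected with Lipofectamine, and total RNA was taken 48 hours later. The labels do not give the share of cells that took up plasmid, and in such bulk RNA a change in few cells cannot be told apart from a small change in all. With 1 array per culture there is no replicate error, SE or p-value for any gene, so values are compared with those of all other genes on the same arrays.

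Cells repair damaged DNA by separate routes. Homologous recombination mends double-strand breaks from the sister chromatid and is used after replication, whereas end joining ligates broken ends throughout the cell cycle. Nucleotide excision repair removes bulky lesions such as those made by ultraviolet light, base excision repair removes small base damage, and mismatch repair corrects replication errors. The kinases Atm and Atr sense breaks and stalled forks and, through Chek2 and Chek1, halt the cell cycle. Many recombination and checkpoint genes are transcribed mainly in cycling cells, while several excision repair genes are expressed in most cells.

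The promoters of the 5 genes with the largest absolute log2 ratios among members with a RefSeq promoter are shown first, because they hold the clearest differences between the arrays and because ATCE1 belongs to the CREB family, whose classical site is the cAMP response element TGACGTCA. Each runs from 250 bases before to 50 bases after the annotated start, from RefSeq on GRCm38.p6. Capitals mark matches, on either strand, to TGACGTCA, to its shorter core TGACG (which lies inside it and inside TGACGTGG), to the related element TGACGTGG and to the E2F-type sites TTTCGCGC, TTTGGCGC and TTTCCCGC. The windows are chr5:150522371-150522670 on the plus strand for Brca2, chr2:121271358-121271657 on the minus strand for Trp53bp1, chr6:112696621-112696920 on the minus strand for Rad18, chr4:116123641-116123940 on the minus strand for Rad54l and chr7:19344821-19345120 on the plus strand for Ercc1. Rad18 and Rad54l each have another annotated start close by, whose window overlaps the one shown.
Brca2: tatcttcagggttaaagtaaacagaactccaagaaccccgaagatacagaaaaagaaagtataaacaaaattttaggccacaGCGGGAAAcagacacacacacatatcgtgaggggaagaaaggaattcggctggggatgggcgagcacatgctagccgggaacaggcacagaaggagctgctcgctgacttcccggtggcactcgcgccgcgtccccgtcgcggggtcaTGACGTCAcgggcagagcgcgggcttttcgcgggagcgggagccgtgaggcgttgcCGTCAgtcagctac
Trp53bp1: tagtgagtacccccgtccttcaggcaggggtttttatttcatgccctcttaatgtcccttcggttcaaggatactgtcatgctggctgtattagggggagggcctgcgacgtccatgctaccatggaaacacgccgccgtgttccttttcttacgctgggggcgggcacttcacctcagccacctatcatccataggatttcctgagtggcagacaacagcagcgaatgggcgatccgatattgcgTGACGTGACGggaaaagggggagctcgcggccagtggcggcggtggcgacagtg
Rad18: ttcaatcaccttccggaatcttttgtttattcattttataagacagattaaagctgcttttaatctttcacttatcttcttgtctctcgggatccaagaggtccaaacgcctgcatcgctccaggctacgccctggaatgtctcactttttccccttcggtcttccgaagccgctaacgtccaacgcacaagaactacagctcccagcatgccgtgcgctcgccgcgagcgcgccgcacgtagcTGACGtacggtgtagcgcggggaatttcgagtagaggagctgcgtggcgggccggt
Rad54l: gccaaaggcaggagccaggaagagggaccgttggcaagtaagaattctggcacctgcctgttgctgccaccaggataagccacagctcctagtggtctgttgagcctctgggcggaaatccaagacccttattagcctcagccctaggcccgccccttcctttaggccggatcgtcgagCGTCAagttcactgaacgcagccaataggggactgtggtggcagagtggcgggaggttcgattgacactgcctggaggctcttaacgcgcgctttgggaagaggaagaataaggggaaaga
Ercc1: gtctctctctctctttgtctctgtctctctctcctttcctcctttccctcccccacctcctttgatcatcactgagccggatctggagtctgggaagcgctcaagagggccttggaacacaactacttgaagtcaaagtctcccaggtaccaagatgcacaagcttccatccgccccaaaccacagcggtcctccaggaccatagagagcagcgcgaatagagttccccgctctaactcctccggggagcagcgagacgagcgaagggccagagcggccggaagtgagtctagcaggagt

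A full element was found in the Brca2 window, where TGACGTCA begins 20 bases before the start, together with TTTCCCGC on the opposite strand, 168 bases before the start, and a core site 36 bases after it. The window of Trp53bp1, the member that differed most in the other direction, holds adjacent core sites that begin 4 bases before and 1 base after the start. Rad18 and Rad54l hold 1 core site each in the windows shown, 6 and 71 bases before the start, and the Ercc1 window holds no match to any of these motifs. A match describes letters and is not evidence of binding.

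The signals are MAS5 intensities in arbitrary units. Signals below the median of their array were raised to that median, the floor, which was 77.5 for ATCE1-C-del and 75.9 for empty vector. A gene was measured when it reached the floor on at least 1 array, and it was read by its brightest probe set over both arrays. Of the 42 members present, 38 were measured, 34 of them on both arrays. Where 1 array lay under its floor, a fold can only be bounded from below and is written "at least". The 4 members under both floors were Bard1, Fancc, Fancg and Ogg1, and no direction is given for them.

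Repair and checkpoint genes tended to be slightly higher with ATCE1-C-del. Of 38 measured members, 26 were higher and 12 lower, where 48.7% of all 6806 measured genes were higher. The log2 ratio, which is positive where the signal with ATCE1-C-del was higher, had a median of 0.13 (1.10-fold) in the members and -0.01 in all measured genes, and the members' 25th and 75th percentiles were -0.02 and 0.25. At least 1.2-fold higher were 9 members, where 9.4% of all measured genes were, and 3 were at least 1.2-fold lower, where 12.3% were. Only 1 member was at least 1.5-fold higher, Brca2, where 0.926% of all measured genes were, and 1 at least 1.5-fold lower, Trp53bp1, where 1.07% were. Of the other 26 members, those above both floors lay within 1.2-fold, and 4 (Msh3, Xrcc4, Ddb2 and Ung) have only a lower bound, which does not show on which side of 1.2-fold they lie. With no floor, Ung had a log2 ratio of 0.41 and Ddb2 of -0.33, both past 1.2-fold. The members were dimmer than all measured genes, with median empty vector signals of 170 and 333, and the shares are not matched for signal. Over all measured genes, the share at least 1.2-fold higher was 20.9% with the floor at the 25th percentile and 5.61% at the 75th. Scaled to the hybridisation controls instead, 35 of the 38 members and 88.5% of all measured genes were higher, since this scaling moves the median of all genes to 0.27. The members' median then stood at 0.41, the same 0.14 above that of all genes as before, and only Trp53bp1, Xpa and Apex1 remained lower. Directions below are therefore relative to the remaining genes.

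**Figure D1:**
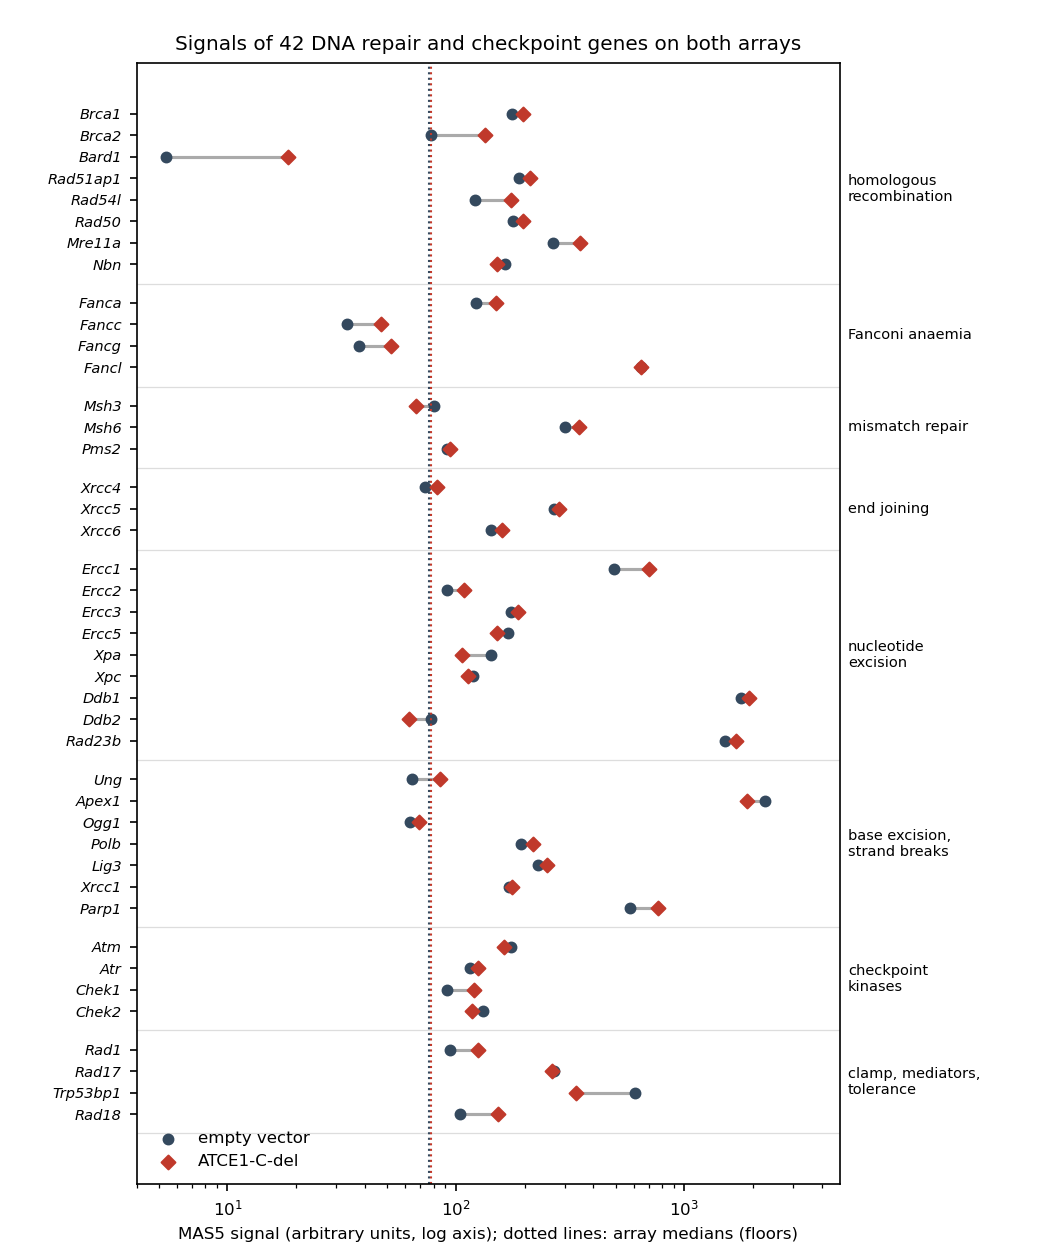
MAS5 signals (log axis, arbitrary units) of the 42 members present, grouped by role, on the empty vector array (circles) and the ATCE1-C-del array (diamonds), 1 array each. Dotted lines mark the floors of 75.9 and 77.5. Most pairs lie close together, with Brca2 (78.0 to 134) and Trp53bp1 (606 to 335) the widest pairs among measured members.

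Members of homologous recombination were mostly higher. Of 7 measured genes, 6 were higher and 1 lower (median log2 ratio 0.15), and 3 were at least 1.2-fold higher. Over all measured genes these shares were 48.7% higher and 9.4% at least 1.2-fold higher. The ratios of Brca1, Rad51ap1, Rad50 and Nbn were smaller than the SD of 1 probe set given below (0.20). Brca2, a tumour suppressor required for recombination, had a signal of 134 with ATCE1-C-del against 78.0 with empty vector. This is 1.71-fold higher, a log2 ratio of 0.78. Its empty vector signal lay just above the floor, and its only probe set can match several transcripts. With log2(signal + 50) in place of the floor its log2 ratio was 0.52, under 1.5-fold, and with the floor at the 75th percentile it was not measured.

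Rad54l, a DNA motor protein of recombination, read 174 with ATCE1-C-del against 121 with empty vector, 1.44-fold higher. Its other 2 probe sets lay under the floor on both arrays. Mre11a, the nuclease of the complex that first binds broken ends, read 350 against 267, or 1.31-fold higher. Its partners in that complex were closer to level, Rad50 at 197 against 178 (1.11-fold higher) and Nbn at 152 against 164 (1.08-fold lower).

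Brca1, the ubiquitin ligase that promotes end resection, read 196 against 177, or 1.11-fold higher, and its partner Bard1 was under both floors, at 18.4 and 5.40. Rad51ap1, an accessory protein of recombination, read 211 against 189 on the probe set used (1.11-fold higher). Its other probe set above both floors read 221 against 155, a log2 ratio of 0.51, so the size of its difference depended on the probe set while the direction did not.

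In the Fanconi pathway, which unhooks crosslinks between the DNA strands, few members were measured. Fanca, a scaffold subunit of the core ligase complex, read 150 with ATCE1-C-del against 123 with empty vector, or 1.22-fold higher. Fancl, the ligase subunit itself, read 646 on one array and 647 on the other, a log2 ratio of -0.001. The core subunits Fancc (46.9 and 33.5) and Fancg (52.2 and 37.5) were under both floors.

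Mismatch repair genes showed little difference. Msh6, which recognises single mispaired bases, read 347 against 300, or 1.15-fold higher. Pms2, the nuclease subunit that nicks the new strand, read 94.3 against 91.1. Msh3, which recognises larger loops, read 66.9 with ATCE1-C-del, under the floor, and 80.2 with empty vector, at least 1.04-fold lower. No member of this route was shown to reach 1.2-fold.

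All 3 end joining genes were on the higher side, where 48.7% of all measured genes were. None of the 3 was shown to reach 1.2-fold. The Ku subunits, which ring the broken end, read 281 against 268 for Xrcc5 (1.05-fold higher) and 160 against 142 for Xrcc6 (1.13-fold higher). Xrcc4, the scaffold of the ligase, read 82.3 with ATCE1-C-del against 72.9 with empty vector, the latter under the floor, so it was at least 1.08-fold higher. Its other probe set was under both floors.

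Nucleotide excision repair genes lay on both sides. Their 9 measured members divided into 5 higher and 4 lower (median log2 ratio 0.10), where 48.7% of all measured genes were higher. Ercc1, a subunit of the nuclease that cuts on the 5′ side of a lesion, read 703 with ATCE1-C-del against 492 with empty vector, 1.43-fold higher. Its catalytic partner Ercc4 was under both floors. Xpa, which checks the lesion and positions that nuclease, read 107 against 143, or 1.34-fold lower, and its other 2 probe sets were under the floor on both arrays. Within this route, then, the nuclease subunit Ercc1 and the factor that binds it differed in opposite directions.

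The helicases of TFIIH, which open the duplex around the lesion, were both on the higher side, Ercc2 at 109 against 91.0 (1.197-fold, just short of the 1.2-fold count) and Ercc3 at 186 against 174 (1.07-fold). Ercc5, the nuclease for the other side, read 151 against 169, or 1.12-fold lower. Among the damage sensors, Xpc read 113 against 119 and its stabilising partner Rad23b 1688 against 1511, while the other probe set of Rad23b gave a log2 ratio of -0.07. Ddb1, an adaptor of a ubiquitin ligase, read 1925 against 1778 (1.08-fold higher), and Ddb2, the subunit that contacts ultraviolet lesions, read 62.3, under the floor, against 78.2. Apart from Ddb2, known only to be at least 1.01-fold lower, the sensors were within 1.2-fold.

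In base excision and single-strand break repair, 5 of 6 measured members were higher (median log2 ratio 0.15), where 48.7% of all measured genes were. The ratios of Polb, Lig3 and Xrcc1 were smaller than the SD of 1 probe set given below (0.20). Parp1, which marks strand breaks with poly(ADP-ribose), read 765 with ATCE1-C-del against 576 with empty vector, 1.33-fold higher. Its other 2 probe sets were also higher, at log2 ratios of 0.24 and 0.13. Polb, the gap-filling polymerase, read 218 against 192 (1.14-fold higher), with its other probe set above the floors at 0.34.

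Apex1, the endonuclease that cuts at abasic sites, was the lower member, at 1872 against 2263 or 1.21-fold lower. Its other 2 probe sets had log2 ratios of 0.07 and 0.34, on the opposite side, so no direction for Apex1 holds over its probe sets. Ung, which removes uracil from DNA, read 85.0 with ATCE1-C-del against 64.1 with empty vector, the latter under the floor, at least 1.12-fold higher. The scaffold Xrcc1 (177 against 171) and the ligase it carries, Lig3 (251 against 228), were within 1.2-fold, and the 4 probe sets of Lig3 above both floors ran from -0.05 to 0.32. The glycosylase gene Ogg1 was under both floors, at 69.2 and 62.8.

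The checkpoint kinases were divided. Chek1, the effector of Atr, read 120 with ATCE1-C-del against 91.0 with empty vector, 1.32-fold higher, but its other probe set above both floors read 94.0 against 93.0, a log2 ratio of 0.01. Chek2, the effector of Atm, read 118 against 132, or 1.12-fold lower. Atr itself read 125 against 115 (1.09-fold higher) and Atm 162 against 175 (1.08-fold lower). Of the 4 kinases, 2 were higher and 2 lower, where 48.7% of all measured genes were higher. The ratios of Atr, Atm and Chek2 were smaller than the SD of 1 probe set given below (0.20). They therefore do not show a split between the Atr and Atm branches. Only Chek1 was past 1.2-fold. Scaled to the hybridisation controls, Atm and Chek2 were also higher.

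Trp53bp1 differed most among the measured members in either direction. It encodes a chromatin reader that gathers at double-strand breaks, limits resection and so favours end joining. It read 335 with ATCE1-C-del against 606 with empty vector, 1.81-fold lower, a log2 ratio of -0.85. Its other probe set read 200 against 258, a log2 ratio of -0.37, on the same side but short of 1.5-fold. The first probe set can match several transcripts and the other is not of that kind, so leaving such probe sets out gives the smaller value.

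Rad18, a ubiquitin ligase that modifies Pcna to let damaged templates be bypassed, read 153 with ATCE1-C-del against 105 with empty vector, 1.46-fold higher. Its other probe set read 97.8 against 67.8, the latter under the floor, a log2 ratio of at least 0.37. Rad1, a subunit of the checkpoint clamp that is loaded at stalled forks, read 125 against 94.3 (1.33-fold higher). The clamp loader subunit Rad17 read 263 against 268, a log2 ratio of -0.03.

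**Figure D2:**
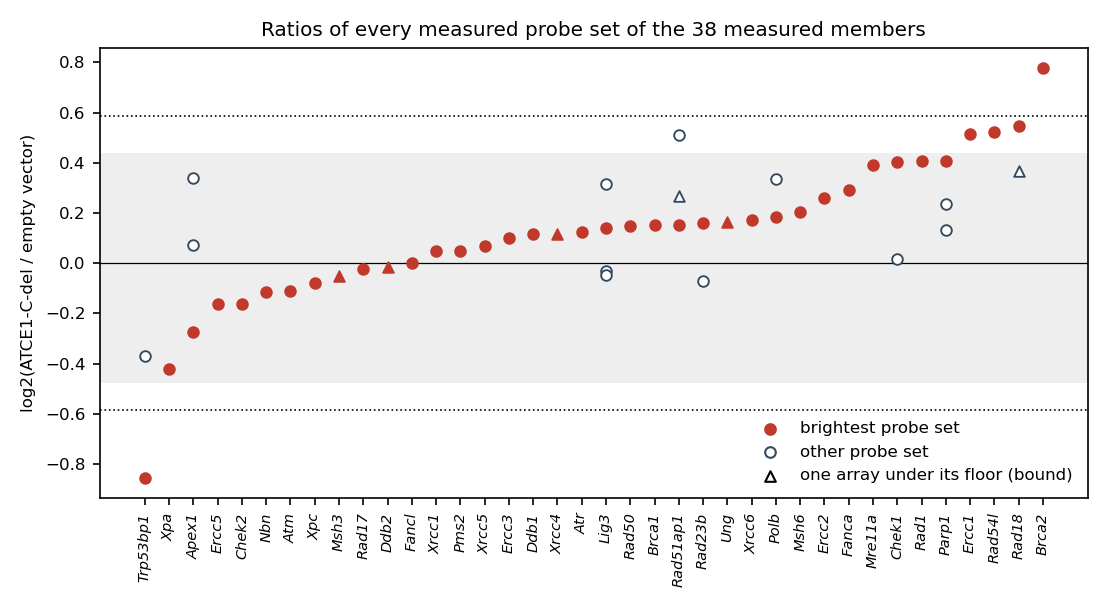
Log2 ratio (ATCE1-C-del / empty vector) for every measured probe set of the 38 measured members, ordered by the brightest probe set (filled). Open symbols are other probe sets, triangles have 1 array under its floor, the grey band is the middle 95% of genes above the floor on both arrays (-0.48 to 0.44) and dotted lines mark 1.5-fold. Trp53bp1 and Brca2 lie past the dotted lines, and the probe sets of Apex1, Lig3 and Rad23b lie on both sides of 0.

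The spread between probe sets of one gene is the only error these arrays offer, and it leaves out variation between cultures. Over 2451 genes with at least 2 probe sets above the floor on both arrays, it gave an SD of 0.20 (log2) for 1 probe set, and 24 of the 38 members had a log2 ratio smaller than that. Among 8 members with such probe sets, all were higher in 4 (Rad51ap1, Polb, Parp1 and Chek1), all lower in 1 (Trp53bp1), and on both sides in 3 (Apex1, Lig3 and Rad23b). For comparison, the 2 brightest such probe sets shared a sign in 60.2% of the 2451 genes. Of 46 member probe sets above both floors, 32 were higher and 14 lower. Several of these belong to the same gene, and the share over all probe sets was not computed. Counted by gene, 48.7% of all measured genes were higher.

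Proteins that work as one complex did not always share a ratio. These groupings were made after the values were seen. In the clamp that contains Rad1, the other subunits were slightly lower, Rad9a at 303 against 323 and Hus1 at 122 against 129, beside 1.33-fold higher for Rad1. Rad18 was 1.46-fold higher while the conjugating enzymes it works with, Ube2a and Ube2b, were near level at log2 ratios of 0.02 and 0.05. The other probe sets of Ube2a and Ube2b gave -0.20 and -0.10. In TFIIH, the core subunits Gtf2h3 and Gtf2h4 were 1.31-fold and 1.18-fold higher, as both member helicases were higher, and Gtf2h1 was 1.21-fold lower. Other probe sets of Gtf2h4 above both floors gave log2 ratios of 0.22 and 0.03. The members Xrcc5 and Xrcc6, and likewise Xrcc1 and Lig3, differed from each other in log2 ratio by less than the SD of 1 probe set.

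**Figure D3:**
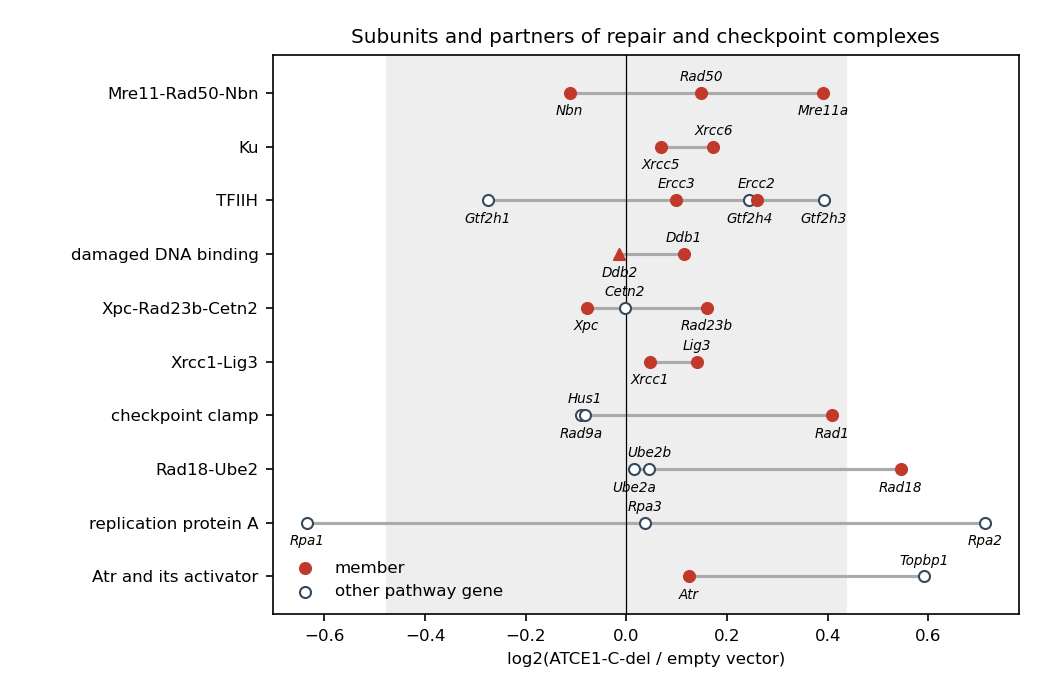
Log2 ratio (ATCE1-C-del / empty vector) for subunits and partners of repair and checkpoint complexes with at least 2 measured genes. Filled symbols are members, open symbols other pathway genes, the triangle has 1 array under its floor and the grey band is the middle 95% of genes above the floor on both arrays. The widest row is replication protein A, from Rpa1 at -0.63 to Rpa2 at 0.71.

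A further 106 symbols of repair and checkpoint genes outside the member list were looked up, of which 72 were present and 56 measured. Of these 56, 39 were higher and 17 lower (median log2 ratio 0.11), where 48.7% of all measured genes were higher. At least 1.2-fold higher were 11, where 9.4% of all measured genes were, and 6 were at least 1.2-fold lower, where 12.3% were. With the mean over probe sets their median was 0.04 against 0.12 for the members. On second brightest probe sets, which 19 of them and 9 members have, it was -0.01 against 0.32. The 4 genes at least 1.5-fold apart were Rpa2, Topbp1, Rpa1 and Polk, where 2% of all measured genes were that far apart. Rpa2 and Rpa1 encode subunits of replication protein A, which coats single-stranded DNA. Rpa2 read 206 with ATCE1-C-del against 126 with empty vector (1.64-fold higher), and its other probe set gave a log2 ratio of 0.55.

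Rpa1 read 1202 against 1867 (1.55-fold lower), while its other probe set gave 0.11, and the remaining subunit Rpa3 was level at 640 against 624. Topbp1, which activates Atr, read 571 against 379 (1.51-fold higher) on its only probe set. Polk, a polymerase that bypasses lesions, read 70.8, under the floor, against 148, at least 1.91-fold lower. Its other probe set was under both floors, at 50.4 against 50.9.

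Genes of cell division are given beside the members. Of 35 measured replication genes, all 35 were higher, with a median log2 ratio of 0.33, and 22 (62.9%) were at least 1.2-fold higher, where 9 of 38 members (23.7%) were. Of 27 measured mitosis genes, 25 were higher, with a median of 0.28, and 15 were at least 1.2-fold higher. Over all measured genes, 48.7% were higher and 9.4% at least 1.2-fold higher. Replication genes ran from 0.08 to 0.68, whereas the members ran from -0.85 to 0.78. On second brightest probe sets the order of the medians was the reverse, at 0.32 for members, 0.20 for replication genes and 0.22 for mitosis genes. Only 9 members, 15 replication genes and 9 mitosis genes have one, so the genes compared differ from those of the full lists. With 1 array per culture the difference between these lists cannot be tested.

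**Figure D4:**
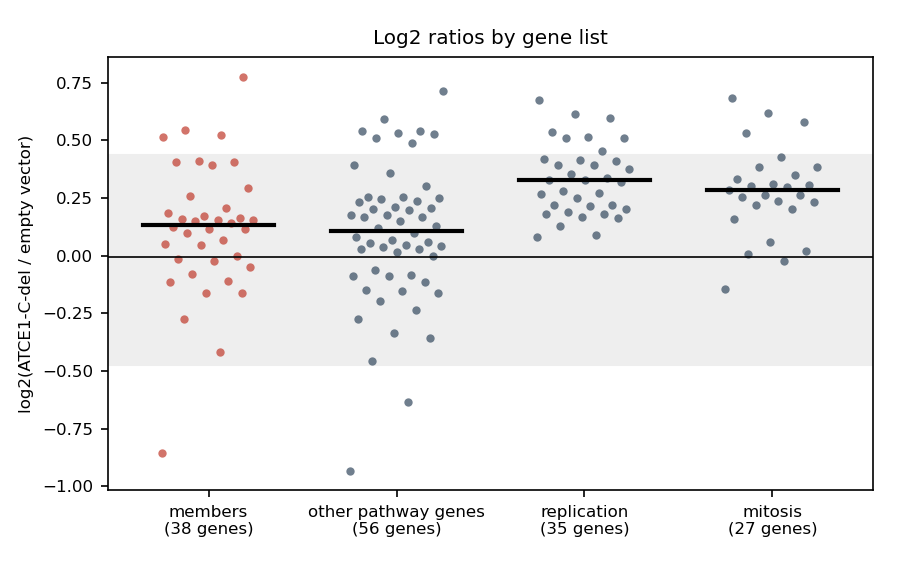
Log2 ratio (ATCE1-C-del / empty vector) for measured genes of 4 lists, 1 point per gene, with thick bars at the medians (0.13, 0.11, 0.33 and 0.28). The grey band is the middle 95% of genes above the floor on both arrays and the thin line the median of all measured genes. Replication genes all lie above 0, while members and other pathway genes lie on both sides.

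Promoter letters were compared with those of all genes. RefSeq promoters were found for 37 members, 32 of them measured. The core site TGACG was in 18 of the 32 (56.2%), in 39.0% of 5626 measured genes with a promoter and in 20.8% of all 32851 promoters. The 18 had a median log2 ratio of 0.15, with 13 higher, and the 14 without it a median of 0.13, with 10 higher, so the core site did not divide the members by ratio. The full element TGACGTCA was in Brca2 alone of the 32 (3.12%), in 3.84% of measured genes and in 1.79% of all promoters. TGACGTGG was in 0 of the 32, in 1.23% of measured genes and in 0.676% of all promoters.

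At least 1 of the E2F-type sites was in 5 of the 32 members (15.6%), in 4.71% of measured genes and in 1.84% of all promoters. The 5 were Brca2, Chek2, Msh3, Msh6 and Xrcc6. TTTCCCGC was in 4 of them, in 2.7% of measured genes and in 1.07% of all promoters. Msh3 held TTTCGCGC, found in 0.924% of measured genes and 0.323% of all promoters, and TTTGGCGC, found in 1.3% and 0.514%. Brca2, Msh6 and Xrcc6 were higher and Chek2 and Msh3 lower. The median GC content of the windows was 57.8% for measured members and 61.4% for measured genes.

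Many of these genes start beside a neighbour transcribed the other way. Within 1000 bases, 15 of the 37 members with a promoter (40.5%) had such a divergent neighbour in the RefSeq table. The share was 22.1% of measured genes and 12.3% of all genes in the table. All 15 were among the 32 measured members with a promoter, which are the like set for the measured genes. In 8 pairs both genes were measured, 5 pairs lying on one side of 0 and 3 on opposite sides. The share of all such pairs that lie on one side was not computed, so these counts have no baseline. Rad1 (0.41) and the ribosome assembly gene Brix1 (0.16) were both higher, as were Xrcc4 and Tmem167, Pms2 and Aimp2, and Xrcc6 and Desi1. In the Xrcc4 and Xrcc6 pairs both ratios were smaller than the SD of 1 probe set (0.20). Apex1 (-0.27) and Osgep (-0.38), a gene of tRNA modification, were both lower on the probe sets used.

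The pairs that went apart were Mre11a (0.39) with Ankrd49 (at most -0.20), Brca1 (0.15) with the autophagy receptor gene Nbr1 (-0.19), and Rad51ap1 (0.15) with D6Wsu163e (-0.14). In the Brca1 and Rad51ap1 pairs both ratios were smaller than the SD of 1 probe set (0.20). The starts of Brca1 and Nbr1 lie 152 bases apart and those of Mre11a and Ankrd49 81 bases apart.

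Fibroblast markers were present on both arrays. All 8 fibroblast markers were measured, with signals summing to 32510 and 31701 on the ATCE1-C-del and empty vector arrays, and their log2 ratios ran from -0.44 to 0.16. None of 6 epithelial, 4 endothelial and 4 muscle markers reached the floor. Of 5 macrophage markers present, Cd14 and Cd68 did, and the 5 summed to 297 and 232. Creb3l4, the mouse gene of ATCE1, was under both floors at 18.0 and 20.7, so its probe set does not check which culture carried the plasmid. Of 18 hybridisation control probe sets, 17 were lower with ATCE1-C-del, with a median log2 ratio of -0.25. Results with scaling to these controls are given above, and the cause of this shift was not tested.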

How the data were processed

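RNA of 2 cultures was hybridised to 1 Affymetrix array each, and samples were grouped by their titles. The intensity values the authors deposited are linear MAS5 signals, per the submitters' processing notes, with no version, scaling target, mask or detection call given. The mean after trimming 2% at each end was 250.1 on both arrays. Of 22690 probe sets, 64 were controls and left out. The platform annotation gave 1 symbol for 20393, several for 691 and none for 1606.

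Arrays were scaled by their trimmed means, and signals under the array median were raised to it before log2 ratios were taken. Folds of 1.2 and 1.5 were fixed sizes, not tests. Every member is given by role, in full where it was at least 1.5-fold apart or among the 3 largest absolute ratios of its role above both floors. From the other pathway genes, those at least 1.5-fold apart or among the 4 largest ratios are named. Head-to-head neighbours are named too, and complex partners were added after their values were seen. Members and lists were chosen with earlier results of these data known. The ratio procedure was tested on simulated data, with planted changes larger than those of the members and only in probe sets well above the floor. That test does not cover small differences or signals near the floor. RefSeq tables on GRCm38.p6 gave promoters and neighbours. Alternatives covered scaling, floor, log scale and probe set choice. The tools were Python 3.11.15 with pandas 2.3.3, numpy 2.4.6, statsmodels 0.14.6, scipy 1.17.1 and, for figures, matplotlib 3.10.9. Having 1 array per culture limits the precision of all values.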

Additional observations from a re-analysis of the deposited data

How the results depend on the processing

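All 12 alternatives were run. With 1 array per culture no replicate could be left out, and no paired analysis was possible because each culture has a single array. The members' median stayed between 0.10 and 0.15 under 10 alternatives. Among these, the signals as deposited could hardly differ from the main result, because both trimmed means were 250.1 before scaling. The members' median was 0.41 with scaling to the hybridisation controls and 0.32 for the second brightest probe sets, which only 9 members have. Scaling to the hybridisation controls put 27 members higher by 1.2-fold or more and 8 by 1.5-fold or more, with none 1.5-fold lower, where 50.9% of all measured genes were higher by 1.2-fold or more and 7.17% were 1.5-fold or more apart. With the floor at the 75th percentile 9 members were measured, of which 6 were higher, 2 by at least 1.2-fold, and 1 was 1.5-fold or more apart (47.3%, 5.61% and 0.759% over all genes). Among second brightest probe sets 7 of 9 were higher, 5 by at least 1.2-fold, and 0 were 1.5-fold or more apart (52.2%, 13.1% and 3.3% over all genes). Without probe sets for several transcripts, 5 of 32 members were higher by 1.2-fold or more and 0 were 1.5-fold or more apart (9.78% and 2.07% over all genes). With log2(signal + 50) 1 member was at least 1.5-fold apart (0.896% over all genes). Of the 38 members, 27 kept one sign wherever they gave a value, 25 higher and 2 lower (Xpa and Trp53bp1), and no member past 1.5-fold changed sign. This split favours the higher side, because scaling to the hybridisation controls raised the ratios of all members. Nbn, Msh3, Ercc5, Xpc, Ddb2, Atm, Chek2 and Rad17 were lower under every other alternative that gave a value for them. The list of other pathway genes had a median of 0.04 with the mean over probe sets and -0.01 on second brightest probe sets, against 0.11. Medians of replication and mitosis genes on second brightest probe sets were 0.20 (15 genes) and 0.22 (9 genes).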
